A study of Mus musculus with 12 samples.

Results

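Etv1, Etv4 and Etv5 make up the PEA3 group of ETS transcription factors, and the mRNA level of each was followed in 12 RNA-seq libraries of mouse C18-4 cells. The 3 genes were taken by symbol from a table of 17576 genes, and each symbol had 1 row. They were put together because Etv5 is a factor of spermatogonial stem cells and because the group is known as an output of ERK signalling, and their choice was made with earlier results of these libraries known. The members were chosen by these 3 symbols and, as far as measured values entered, on those of the lncRNA5251 knockdown against its vector control and of the vector controls against each other, so the values of the members are a description without a test, both there and in the comparisons with 5NC, whose libraries are the same. Tests are given for other genes.

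C18-4 is a line of mouse type A spermatogonia immortalized with the large T antigen. The cells carried a lentiviral construct in every group, and no untransduced cells were analysed here. The 3NC cells carried the negative control of the shRNA constructs in the LV3 vector, and the knockdown cells (labelled C18_5251KD) carried shRNAs against lncRNA5251, a long noncoding RNA, in that same LV3 backbone. The methods of the study give 3 mixed shRNAs to different positions, while a supplementary version gives a different number and names another lncRNA in places, so that the target and the mix rest on the labels and the main methods. The 5NC cells carried the LV5 vector alone, and the overexpression cells (labelled C18_5251OV) carried LV5 with lncRNA5251 for overexpression. Each group had 3 libraries. No label says whether the libraries of a group came from separate cultures, so the p-values measure the spread between these libraries, which may be technical.

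Levels are in RPKM as deposited, a read number scaled to transcript length and to all mapped reads. RPKM is per length, so levels of different genes can be set side by side. Read numbers were not given, so the depth behind each value is unknown. The RPKM of all genes summed to between 533099 and 580920 per library, and the rank correlation between libraries was 0.987 to 0.990 within groups and 0.973 to 0.989 between groups. A gene was tested where it reached 1 RPKM in at least 3 libraries, which 11435 genes did. No row carries the name lncRNA5251, so the success of its knockdown or overexpression was not analysed here. Of 12 germ cell markers 11 had a row, and 10 of these stayed under 1 RPKM in all 12 libraries. The highest was Id4 at 0.83 to 1.82 RPKM, while Kit, Nanos2 and Pou5f1 were listed at 0 throughout. The germ cell label of the line was therefore not borne out at the mRNA level, and the libraries are called C18-4 cells here without a cell type.

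The PEA3 proteins bind GGAA core sites through an ETS domain and activate transcription. Receptor tyrosine kinase signalling through RAS and ERK raises their mRNA, in part by lifting the repressor capicua from octamers in their regulatory regions, and the COP1 ubiquitin ligase removes the proteins. In the testis Etv5 is known from germ cells and Sertoli cells, and its loss in mice exhausts the spermatogonial stem cells, where GDNF acting through Ret and Gfra1 raises it.

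The upstream sequence of Etv5 is shown because capicua octamers are the best known link between ERK activity and this group. RefSeq gave 2 start sites for Etv1 and 2 for Etv5, and none was available for Etv4, whose upstream sequence was not searched. The 250 bases before each start were searched on both strands for the 8 spellings TGAATGAA, TGAATGGA, TGAATGAG, TGAATGGG, TCAATGAA, TCAATGGA, TCAATGAG and TCAATGGG. The window before the downstream start of Etv5, which lies in an intron of its longer transcript, held 3 of them, and the other window of Etv5 and both windows of Etv1 held 0. It is given below on the minus strand of chr16:22438369-22438618 (GRCm38.p6), with the octamers in capitals.
Etv5, downstream start: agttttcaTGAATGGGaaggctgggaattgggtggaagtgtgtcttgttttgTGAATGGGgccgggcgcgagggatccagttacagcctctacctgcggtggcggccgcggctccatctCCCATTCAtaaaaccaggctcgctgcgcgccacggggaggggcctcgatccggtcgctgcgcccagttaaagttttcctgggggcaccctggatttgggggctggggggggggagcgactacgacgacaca
The first and second octamers read along the gene, starting at −242 and −198 from the start site, and the other runs against it from −131. Of 32851 windows of this length, 1925 (5.86%) held at least 1 octamer and 19 (0.0578%) held 3 or more. The letters are a match and were not tested as sites of binding, and their absence from a window says only that they are not in those 250 bases.

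Genes known to rise with ERK activity were searched in the same way, since the levels of the members are compared with theirs further on. The lists here and below were searched with a single chromosome left out, so any list genes on it are not counted. Of the 11 with a window on the other chromosomes, 5 (45.5%) held an octamer, against 6.77% of 27025 genes in all. The 27025 genes include the chromosome left out, so the shares come from unlike sets. One octamer of each is printed with its surroundings, in capitals and along the gene, on the same build.
Dusp6, chr10:99263196-99263225, plus strand: gagagaatgtaTCCATTGAgacgctggctg
Dusp5, chr19:53529095-53529124, plus strand: caggacgcgcaCTCATTCAcataaaacgct
Spry2, chr14:105896855-105896884, minus strand: tcggcctcttgTTCATTGAgaaaaaaaaaa
Epha2, chr4:141301191-141301220, plus strand: cgtcagcgcagggcaTGAATGAAcaggagc
Spred3, chr7:29168648-29168677, minus strand: cggagcagccttgatttttgTGAATGAAat
Dusp6 and Dusp5 encode phosphatases of MAP kinases, Spry2 and Spred3 encode inhibitors of RAS signalling, and Epha2 is an ephrin receptor. None of the 14 genes with a window in the list of RAS to ERK kinases and their partners held an octamer, nor did any of 7 self-renewal genes or of 9 genes with reported PEA3 sites. One was held by 1 of 19 other ETS genes, 1 of 15 receptors and adaptors, and 2 of 10 capicua and COP1 partners (20%), Atxn1l and Trib2.

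**Figure D1:**
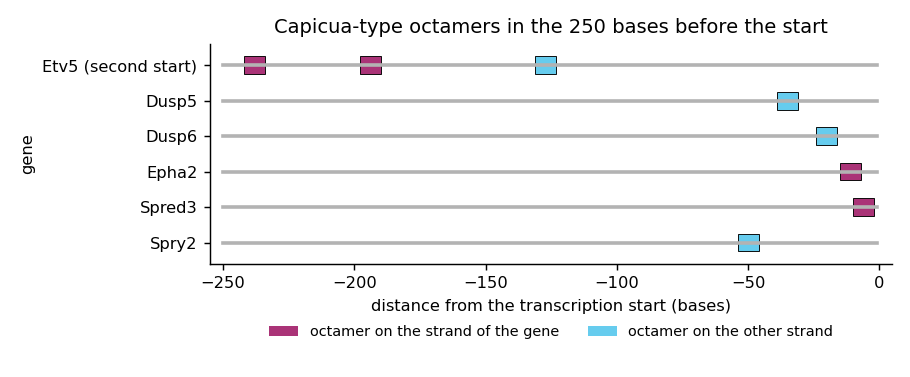
Position of each capicua octamer (boxes, coloured by strand) in the 250 bases before the start site of Etv5 (second, downstream start) and of the 5 ERK output genes, against the distance from the start in bases. Etv5 holds 3 boxes between −242 and the start at 0, and each of the 5 other genes holds 1, within 54 bases of its start.

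The coding sequences of the 3 genes are related, and reads shared between them could blur their levels. The GENCODE M21 transcripts compared had 6576 bases for Etv1, 2395 for Etv4 and 3975 for Etv5, each in 13 exons. The longest run that Etv4 and Etv5 have in common is 23 bases in the coding part of both, printed in capitals since every base of it is shared.
Etv4 and Etv5: GGCATCATGCAGAAGGTGGCTGG
No window of 35 bases was identical between any 2 of the transcripts. With up to 2 mismatches allowed, 32 of the 2361 windows of Etv4 matched Etv5. Overlap of the 3 with other annotated genes was not analysed here.

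Etv4 was the most abundant PEA3 gene in every library. It read 32.15, 30.18 and 31.64 RPKM in 3NC, against 10.49, 10.08 and 8.07 RPKM in the knockdown. It read 3.40, 3.73 and 3.63 RPKM in 5NC and 6.37, 5.88 and 5.25 RPKM in the overexpression. The groups thus fell in the order 3NC, the knockdown, the overexpression and 5NC, and no libraries of neighbouring groups overlapped. In bulk libraries such as these, fewer cells of a type and less RNA per cell cannot be told apart.

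Etv5 followed another order. It read 7.82, 7.89 and 7.72 RPKM in 3NC and 2.49, 2.18 and 2.38 RPKM in the knockdown. It read 2.70, 3.52 and 3.07 RPKM in 5NC and 2.72, 2.79 and 3.07 RPKM in the overexpression. The 3NC libraries lay far above all others and the knockdown libraries below all others, while the overexpression libraries lay inside the range of 5NC.

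Etv1 was near or at the lower end of the table in all groups. It was listed at 0.02, 0 and 0 RPKM in 3NC and at 0.11, 0.13 and 0.04 RPKM in the knockdown, and at 0 in all 3 libraries of 5NC and of the overexpression. Its knockdown libraries lay above the rest, but each was far under the 1 RPKM needed for a test, so no fold or test is given for it. The differences below are those of Etv4 and Etv5.

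**Figure D2:**
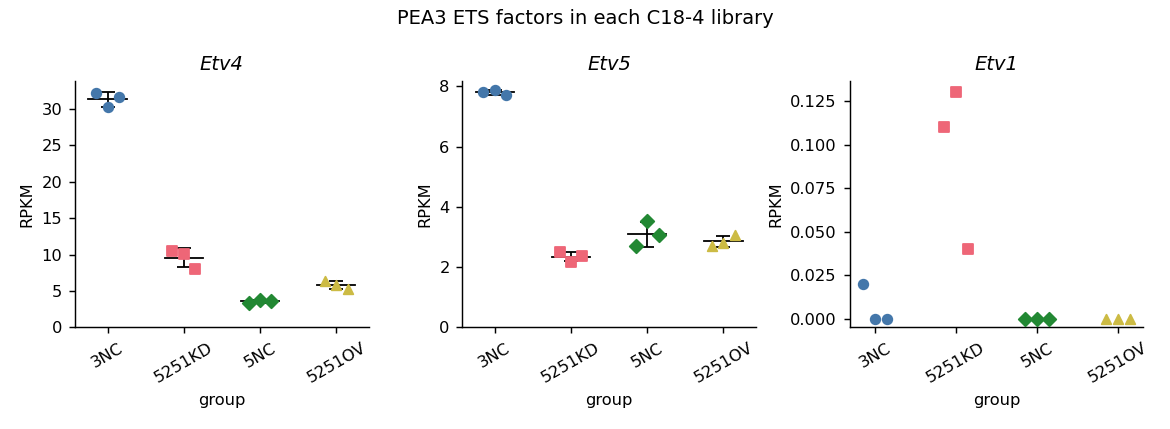
RPKM of Etv4, Etv5 and Etv1 in each of the 12 libraries by group (points), with the mean ± SD (n = 3) as bars for Etv4 and Etv5, each panel on a linear axis of its own. Etv4 separates all 4 groups, Etv5 separates 3NC from the rest, and Etv1 stays at or under 0.13 RPKM.

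In the knockdown against its vector control, the question was what loss of lncRNA5251 does to gene expression in these cells. Both abundant members were lower in the knockdown. Etv4 averaged 9.55 ± 1.30 RPKM (SD, n = 3) in the knockdown and 31.3 ± 1.02 RPKM in 3NC, so that the 3NC mean was 3.28 times as high. Etv5 averaged 2.35 ± 0.157 RPKM in the knockdown and 7.81 ± 0.0854 RPKM in 3NC, where the 3NC mean was 3.32 times as high. The differences were −1.62 ± 0.09 (SE) for Etv4 and −1.40 ± 0.08 for Etv5 on the log2(RPKM + 1) scale, which understates the change of genes with few RPKM. They ranked 22 and 47 from the largest fall among the 11435 genes. By the calling rule of the study, an adjusted p of at most 0.001 with a log2 difference of at least 1, here from limma with Benjamini-Hochberg adjustment, 1.08% of genes were called lower and 0.498% higher. The 2 members are part of those lower calls, but nothing is read from this, since their choice drew on this comparison. The libraries of both groups were apart for 62.8% of all genes tested.

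The vector controls differed from each other in the same 2 members. Etv4 averaged 3.59 ± 0.169 RPKM (SD, n = 3) in 5NC, so that the 3NC mean was 8.73 times as high, with a difference of −2.82 ± 0.09 (SE) on the log2 scale. That was the second largest fall of all genes tested. Etv5 averaged 3.10 ± 0.411 RPKM in 5NC, and the 3NC mean was 2.52 times as high, with a difference of −1.11 ± 0.08 at rank 96 from the largest fall. In this comparison 1.05% of genes were called lower and 1.56% higher, and the libraries were apart for 69.3%. The 5NC level of Etv4 was below that of the knockdown, and the comparisons of the knockdown and of 5NC with 3NC share the 3NC libraries. The vector backbone and any other difference in how the LV3 and LV5 cells were made cannot be told apart from one another.

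Overexpression against its own vector control asked what added lncRNA5251 does. Etv4 was higher in the overexpression, and Etv5 overlapped between the groups. Etv4 averaged 5.83 ± 0.561 RPKM (SD, n = 3) in the overexpression, 1.63 times the 5NC mean, and was higher in 3 of 3 libraries than in any of 5NC. The difference was 0.57 ± 0.09 (SE) on the log2 scale, and it ranked 25 from the largest rise. Etv5 averaged 2.86 ± 0.185 RPKM in the overexpression with overlapping libraries, a difference of −0.08 ± 0.08. The 5NC libraries entered the choice of the members, in which Etv4 was known to be low in 5NC, so no test is given for either gene. At an adjusted p of 0.05 from limma, 8.07% of genes rose and 13.9% fell, and the libraries were apart for 36.7%. By the calling rule of the study, with its fold limit, 0% of genes were called higher and 0% lower by limma, although 1601 genes were higher and 2639 lower at an unadjusted p under 0.05.

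The knockdown cells were also set against the LV5 control, a comparison in which the vector goes with the group. Etv4 was higher in the knockdown and Etv5 lower. The knockdown mean of Etv4 was 2.66 times that of 5NC, a difference of 1.19 ± 0.09 (SE) on the log2 scale. The 5NC mean of Etv5 was 1.32 times that of the knockdown, a difference of −0.29 ± 0.08. The libraries did not overlap for either gene. These differences follow from those of the knockdown and of 5NC against 3NC, on which the choice drew, so no test is given. In all, 1.26% of genes were called higher and 2.29% lower, 34.0% were higher and 31.4% lower at an adjusted p of 0.05, and the libraries were apart for 69.4%. Both comparisons with 5NC share those 3 libraries.

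**Figure D3:**
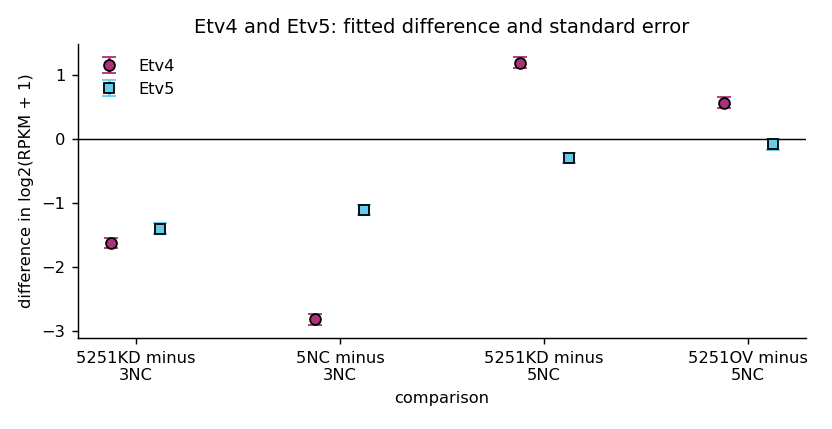
Differences in log2(RPKM + 1) of Etv4 and Etv5 with their SE from limma in each of the 4 comparisons (KD in the axis names is the knockdown, OV the overexpression). Both members lie below 0 in the knockdown and 5NC against 3NC, and Etv4 alone lies above 0 in the overexpression and in the knockdown against 5NC.

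The balance between the 2 expressed members differed between the groups. The ratio of Etv4 to Etv5 averaged 4.01 ± 0.162 (SD, n = 3) in 3NC and 4.08 ± 0.628 in the knockdown, with overlapping libraries. It averaged 1.17 ± 0.101 in 5NC and 2.05 ± 0.319 in the overexpression. The libraries of both LV3 groups thus overlapped in this ratio while their levels of Etv4 and Etv5 were 3.28 and 3.32 times apart, and the LV5 control had the lowest ratio. The log2 ratio was 0.81 higher in the overexpression than in 5NC and 1.80 higher in the knockdown than in 5NC, each without overlap and each as a description. The sum of the 3 genes was 39.1 ± 0.979 RPKM in 3NC, 11.99 ± 1.35 RPKM in the knockdown, 6.68 ± 0.575 RPKM in 5NC and 8.69 ± 0.386 RPKM in the overexpression. Etv4 made up 80.0%, 79.5%, 53.8% and 67.0% of that sum in the same order.

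**Figure D4:**
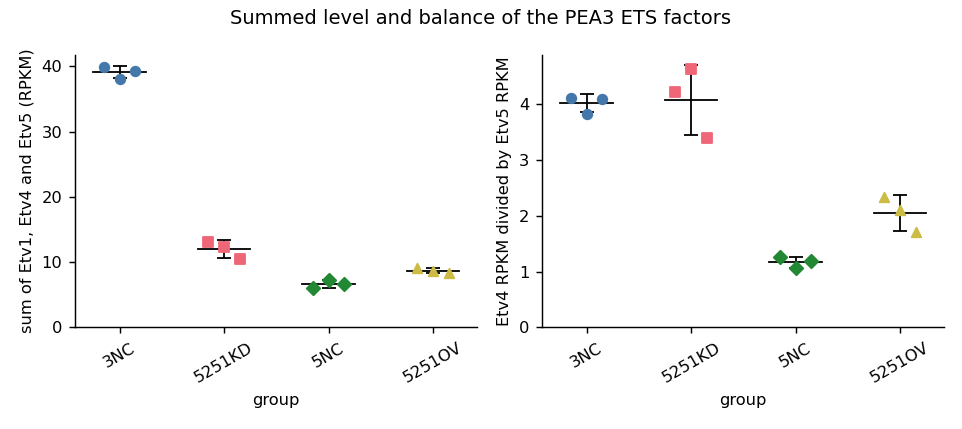
Sum of Etv1, Etv4 and Etv5 (RPKM) and ratio of Etv4 to Etv5 in each library by group (points) with the mean ± SD (n = 3). The sum is highest in 3NC, while the ratio is near 4 in both LV3 groups, 1.17 in 5NC and 2.05 in the overexpression.

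The place of the members in their family moved with the groups. Of the ETS family, 21 genes had a row, and by mean RPKM Etv4 came first (rank 1) in 3NC, at rank 8 in the knockdown, 12 in 5NC and 10 in the overexpression. Etv5 stood at 11, 14, 13 and 13. Elf2 led the family in the other 3 groups, at 29.9 RPKM in the knockdown, 26.6 RPKM in 5NC and 25.4 RPKM in the overexpression. None of the 13 other ETS genes tested was called in any of the 4 comparisons. Counted at an adjusted p of 0.05 from limma, 4 rose and 4 fell in the knockdown against 3NC, where 31.9% of all genes rose and 23.5% fell, and their median difference was 0.10 against 0.04 for all genes. Erf, a repressor that ERK exports from the nucleus, fell from 18.3 to 11.7 RPKM, and Elf3 rose by 0.54 on the log2 scale. In the overexpression against 5NC 1 rose and 3 fell, against 8.07% and 13.9% of all genes, Elk4 by −0.37 and Etv3 by −0.34. In 5NC against 3NC, where 31.0% of all genes were higher and 25.6% lower, 5 were higher and 3 lower, Elk3 by −0.64 and Elk4 by −0.44. In the knockdown against 5NC 6 were higher and 4 lower, against 34.0% and 31.4% of all genes, Elf3 by 0.56 and Ets2 by −0.45.

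The genes that act on the PEA3 factors were taken from a list of 12 capicua and COP1 partners, of which 10 were tested. None was called in any comparison. Capicua itself (Cic) averaged 11.8 ± 0.0814 RPKM (SD, n = 3) in 3NC, 10.5 ± 1.46 RPKM in the knockdown, 10.01 ± 0.577 RPKM in 5NC and 10.6 ± 0.440 RPKM in the overexpression. Trib1, an adaptor that brings substrates to COP1, was 0.78 lower on the log2 scale in the knockdown than in 3NC and 0.26 lower in 5NC than in 3NC, and Det1, a part of the same ligase, was 0.30 lower in the knockdown than in 3NC. At an adjusted p of 0.05 from limma the list had 2 higher and 3 lower in the knockdown against 3NC, beside 31.9% and 23.5% of all genes, and 1 and 2 in the overexpression against 5NC, beside 8.07% and 13.9%. It had 5 and 3 in 5NC against 3NC, beside 31.0% and 25.6%, and 2 and 3 in the knockdown against 5NC, beside 34.0% and 31.4%. The named genes of the other comparisons were Atxn1l (−0.30) and Cul4a (−0.20) in the overexpression against 5NC, Cop1 (0.27) in 5NC against 3NC, and Trib1 (−0.52) and Det1 (−0.51) in the knockdown against 5NC.

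Upstream of ERK, the receptors through which GDNF acts on spermatogonial stem cells were nearly silent. Ret was listed at 0 in all 12 libraries, and Gfra1 did not pass 0.17 RPKM. Kit, the receptor of stem cell factor, was also listed at 0 in all 12. Of 18 receptors and adaptors 12 were tested and none was called. At an adjusted p of 0.05 from limma 6 rose and 3 fell in the knockdown against 3NC (all genes 31.9% and 23.5%), with Gab1, a docking protein, up by 0.62 and Igf1r up by 0.46 on the log2 scale. In the overexpression against 5NC 1 rose and 2 fell (all genes 8.07% and 13.9%), namely Met by −0.41 and Egfr by −0.26. In 5NC against 3NC 4 were higher and 2 lower (all genes 31.0% and 25.6%), among them Gab1 (0.96) and Shc1 (−0.49), and in the knockdown against 5NC 5 were higher and 3 lower (all genes 34.0% and 31.4%), among them Grb2 (0.50) and Ptpn11 (−0.49).

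The 19 genes of the RAS to ERK cascade were all tested and none was called. In the knockdown against 3NC 6 rose and 5 fell at an adjusted p of 0.05 from limma, where 31.9% and 23.5% of all genes did, with Rras up by 0.64 and Ksr1, a scaffold, at −0.42. In the overexpression against 5NC 0 rose and 5 fell, where 8.07% and 13.9% of all genes did, among them the exchange factor Sos1 (−0.38) and the kinase Rps6ka3 (−0.35). In 5NC against 3NC 5 were higher and 3 lower (31.0% and 25.6% of all genes), with Map2k2 at 0.44 and Ksr1 at −0.44. In the knockdown against 5NC 5 were higher and 5 lower (34.0% and 31.4% of all genes), with Map2k2 at −0.73 and Rras at 0.67. The medians of the list lay between −0.10 and 0.10 in the 4 comparisons, and those of all genes between −0.03 and 0.04.

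The 17 ERK output genes, among them phosphatases, Sprouty and Spred inhibitors and immediate early genes, were all tested. In the knockdown against 3NC 7 were called lower and 0 higher, beside 1.08% and 0.498% of all genes, with a median of −0.81. The lowest was Fosl1, an AP-1 subunit, which went from 31.0 ± 1.10 RPKM (SD, n = 3) in 3NC to 0.983 ± 0.409 RPKM. Dusp4 (−1.63), Ier3 (−1.54) and Dusp6 (−1.42) followed. At an adjusted p of 0.05 from limma 13 of the 17 were lower and 3 higher, beside 23.5% and 31.9% of all genes. This list was chosen with the values of Fosl1, Dusp4 and Dusp6 known, so its count is not independent evidence of a direction.

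In 5NC against 3NC 3 ERK output genes were called lower, Fosl1 (−3.56), Phlda1 (−1.27) and Egr1 (−1.09), beside 1.05% of all genes called lower, and the median was −0.58. At an adjusted p of 0.05 from limma 10 were lower and 2 higher, beside 25.6% and 31.0% of all genes. In the overexpression against 5NC none of the 17 was called, but 7 were higher and 1 lower at an adjusted p of 0.05, beside 8.07% and 13.9% of all genes, with a median of 0.22. Fosl1, whose values were known when the list was chosen, was 0.66 higher, and Egr1 was 0.43 lower. In the knockdown against 5NC 4 were higher and 8 lower with none called, beside 34.0% and 31.4% of all genes, and the strongest were Dusp5 (−0.93) and Ier3 (−0.83). Dusp6 fell there by 0.51 while Etv4 was higher, so the order of the groups was not the same for Etv4 and for this neighbour in function. Dusp6 averaged 17.2 RPKM in 3NC, 5.84 RPKM in the knockdown, 8.72 RPKM in 5NC and 10.5 RPKM in the overexpression.

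**Figure D5:**
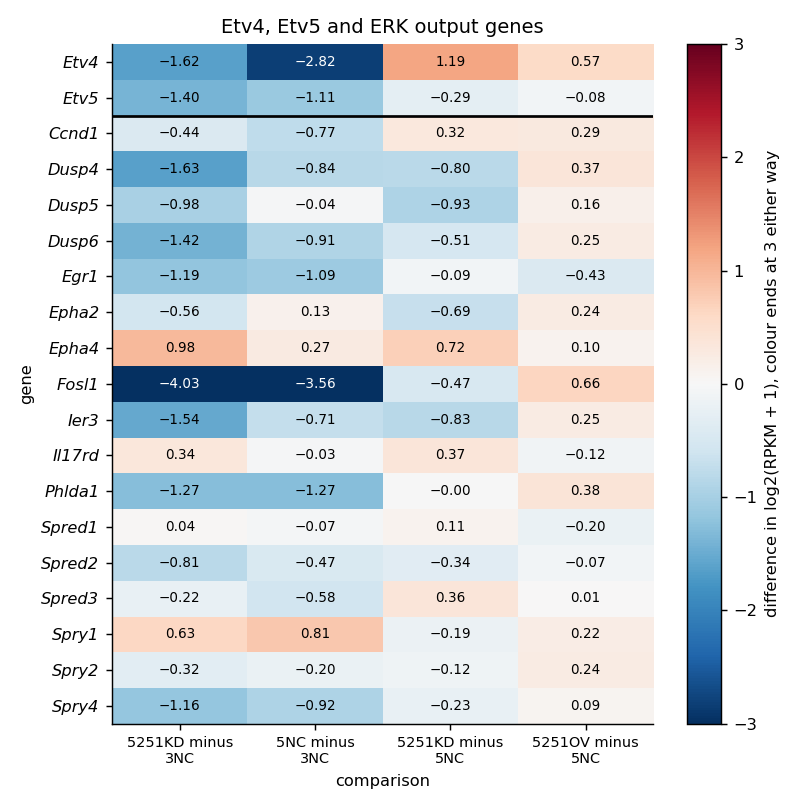
Differences in log2(RPKM + 1) of Etv4, Etv5 and the ERK output genes (rows) in the 4 comparisons (columns), lower in blue and higher in red, with the colours ending at 3 either way. Fosl1 is the lowest in both comparisons with 3NC at −4.03 and −3.56, and Etv4 is lower in both comparisons with 3NC and higher in both with 5NC.

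Spermatogonial self-renewal genes, of which only some are known to be raised by Etv5, gave little to compare. Bcl6b, Lhx1, T and Cxcr4 each stayed under 1 RPKM in every library. Of 13 self-renewal genes 4 were tested, namely Pou3f1, Id4, Mycn and Ccnd2. Of the 4 tested, 0 were higher and 1 lower at an adjusted p of 0.05 from limma in the knockdown against 3NC (all genes 31.9% and 23.5%), 1 and 0 in the overexpression against 5NC (8.07% and 13.9%), 2 and 1 in 5NC against 3NC (31.0% and 25.6%), and 1 and 3 in the knockdown against 5NC (34.0% and 31.4%). Pou3f1 was called higher in 5NC than in 3NC, as 1.56% of all genes were, at 11.8 ± 0.172 against 3.74 ± 0.466 RPKM (SD, n = 3), a difference of 1.44. It was called lower in the knockdown, at 4.00 RPKM, than in 5NC with a difference of −1.36, as 2.29% of all genes were, and it was 0.33 higher in the overexpression than in 5NC (adjusted p = 0.0195 from limma). Its highest groups were those in which Etv4 was lowest. Id4 was 0.40 lower in the knockdown than in 3NC.

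The genes whose pattern was most like that of each member were taken by Pearson's r of log2(RPKM + 1) over the 12 libraries, as a description. The libraries share their groups, so r mostly follows the 4 group means. For Etv4 these were Nr4a1 (0.992), Kif18b (0.992), Plin2 (0.991), Rbm8a (0.991) and Mpp2 (0.990), and for Etv5 Gm46620 (0.986), Gm46257 (0.985), Mthfd2l (0.984), Lrrc8d (0.983) and the gene numbered 105246811 (0.982). Between Etv4 and Etv5 r was 0.813, and Etv5 ranked 630 among the genes most like Etv4. For Etv1 the genes were Mprip, Pkn3, Scarb1, Fto and Fam171a2, with r of 0.958 to 0.970, but these rest on 4 libraries above 0.

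Markers of other cells were compared with the members for the same libraries. The summed level of 7 peritubular or mesenchymal markers, with Col1a1 the highest, was 334 to 348 RPKM in 3NC, 435 to 522 RPKM in the knockdown, 566 to 576 RPKM in 5NC and 569 to 619 RPKM in the overexpression. This sum ran against Etv4 between 3NC, the knockdown and 5NC, and its part in the member values was not tested. The single markers were not alike. Acta2 averaged 8.52 RPKM in 3NC, 18.6 RPKM in the knockdown, 21.2 RPKM in 5NC and 13.6 RPKM in the overexpression, so it was high where Etv4 was low also within the LV5 pair (−0.60 in the overexpression against 5NC, adjusted p = 0.000244 from limma), which the sum does not show. Of the 5 tested, 1 was called higher in the knockdown against 3NC (Acta2) and 2 in 5NC against 3NC (Acta2 and Dcn), beside 0.498% and 1.56% of all genes, and 1 was called lower in the knockdown against 5NC (Dcn), beside 2.29%. Of these 5, 4 were higher and 0 lower in the knockdown against 3NC at an adjusted p of 0.05 from limma, beside 31.9% and 23.5% of all genes, and 3 were higher and 1 lower in 5NC against 3NC, beside 31.0% and 25.6%. In the other comparisons 0 were higher and 1 lower in the overexpression against 5NC (8.07% and 13.9% of all genes), and 1 was higher and 2 lower in the knockdown against 5NC (34.0% and 31.4%). Dcn went from 21.6 RPKM in 3NC to 36.1 RPKM in the knockdown and 112 RPKM in 5NC, while Pdgfra ran the other way at 1.32, 1.09 and 0.877 RPKM and Tagln was at 54.5, 65.3 and 55.4 RPKM. The other 2 of the 7, Myh11 and Col1a2, stayed under 1 RPKM. The 8 Sertoli markers with a row summed to 58.8 to 66.8 RPKM, most of it Wt1, with Sox9 at or under 0.03 RPKM. Under this sum Rhox5 moved, at 2.89 RPKM in 3NC, 2.52 RPKM in the knockdown, 0.913 RPKM in 5NC and 0.94 RPKM in the overexpression. It was called lower in 5NC against 3NC (−1.02), as 1.05% of all genes were, and its part in the member values was not tested. Gata4 went the other way there, from 5.15 RPKM in 3NC to 6.23 RPKM in 5NC. Of the 4 Sertoli markers tested, 1 was higher and 1 lower at an adjusted p of 0.05 from limma in 5NC against 3NC (31.0% and 25.6% of all genes). The counts were also 1 and 1 in the knockdown against 5NC (34.0% and 31.4%). They were 0 and 0 in the knockdown against 3NC (31.9% and 23.5%) and in the overexpression against 5NC (8.07% and 13.9%). The 4 Leydig markers summed to 0.85 to 2.39 RPKM, led by Star.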

How the data were processed

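RNA of C18-4 cells was sequenced in 12 libraries, 3 in each of 4 groups set by the labels. The authors deposited 1 table of RPKM values, made after alignment with SOAPaligner. The reference gene set and build are not given in the sources used here, and RPKM keeps no read number, so depth and counting error are unknown.

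From these values log2(RPKM + 1) was computed, and a gene was kept where 3 or more libraries reached 1 RPKM. All 12 libraries entered 1 limma fit (version 3.58.1, R 4.3.3, empirical Bayes with an intensity trend) with a term for the group. P-values were adjusted by Benjamini-Hochberg over the 11435 genes. A gene was called at an adjusted p of at most 0.001 with an absolute log2 difference of at least 1, the limits in the study's methods, whose own test needs read numbers. The fit was tested on simulated data.

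The members and lists were chosen with earlier results of these data known. Named genes were the 3 members, at most 4 called genes of each list and comparison by size of difference or, where none was called, at most 2 past an adjusted p of 0.05, the 5 genes most like each member, and the highest of each marker list. Genes outside this rule (Cic, Elf2, Dusp6 against 5NC, Ret, Kit and others given as levels) were named after their values were seen. Sequences came from RefSeq (GRCm38.p6) and GENCODE M21, matched by symbol, and windows were found for 2 of the 3 members. Alternatives were a pseudocount of 0.1, quantile normalization, dropping the filter, fitting only the libraries compared, a replicate block, another threshold and leaving out each library.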

Additional observations from a re-analysis of the deposited data

How the results depend on the processing

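The differences of Etv4 and Etv5 kept their direction under every alternative but 1, the overexpression value of Etv5 under quantile normalization. In the knockdown and 5NC against 3NC, 5 values moved beyond the replicate spread. For the overexpression and the knockdown against 5NC no count of stable values is given, since no test of the members is given there. Etv1 was under the filter and gave no value. With a pseudocount of 0.1, Etv5 was at −1.69 in the knockdown and −1.31 in 5NC against 3NC, and Etv4 at −3.09 in 5NC against 3NC. With quantile normalization, Etv5 was at −1.48 in the knockdown against 3NC and Etv4 at −2.88 in 5NC against 3NC, and Etv5 in the overexpression against 5NC turned to 0.021. The causes were not tested. Leaving out 1 library at a time, Etv4 ranged from 0.52 to 0.64 in the overexpression against 5NC and from 1.13 to 1.30 in the knockdown against 5NC. Etv5 ranged from −0.15 to −0.01 in the former.

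Counts of called genes moved more. With a pseudocount of 0.1 there were 166 higher and 197 lower in the knockdown against 3NC (57 and 123 before), 299 and 207 in 5NC against 3NC (178 and 120 before), 2 and 2 in the overexpression against 5NC (0 and 0 before), and 289 higher in the knockdown against 5NC (144 before). At an adjusted p of 0.05 without a fold limit the counts were 3647 and 2688, 3540 and 2926, 923 and 1595, and 3891 and 3586 in the same order. In the overexpression against 5NC quantile normalization gave 1 higher, and leaving out a library gave 0 to 1 higher and 0 to 9 lower, the 9 without overexpression replicate 3.

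Replicate numbers did not pair the libraries, since the deviations of same-numbered libraries correlated at −0.178 to 0.176 over the 4 comparisons. In 5NC against 3NC they were all positive, at 0.0494 to 0.0962, and 3 of 3 libraries were closest to their own number, a hint from the data and not from the design. The replicate block gave 1 gene lower in the overexpression against 5NC and turned no member value.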

Other observations

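Genes with PEA3 sites reported in their promoters, a list of matrix proteases and adhesion genes, were set beside the members as a further group. Of 12 such genes 7 were tested. Spp1, which encodes osteopontin, was called lower in the knockdown against 3NC, at 63.5 ± 3.48 against 181 ± 8.03 RPKM (SD, n = 3, difference −1.50), and in 5NC against 3NC, at 50.4 ± 2.0 RPKM (difference −1.83). It was the only 1 of the 7 called in any of the 4 comparisons by limma with Benjamini-Hochberg adjustment, where 1.08% and 1.05% of all genes were called lower. Of the 7, 1 was higher and 3 lower at an adjusted p of 0.05 in the knockdown against 3NC (31.9% and 23.5% of all genes), and 2 were higher and 3 lower in 5NC against 3NC (31.0% and 25.6%). In the overexpression against 5NC 1 was higher and 2 lower at an adjusted p of 0.05 (8.07% and 13.9% of all genes), Mmp2 by −0.42 and Mmp14 by −0.19, and in the knockdown against 5NC 3 were higher and 3 lower (34.0% and 31.4% of all genes), Plaur by −0.81 and Mmp2 by −0.56.

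The genes beside each member in RefSeq order, 5 tested on each side, were chosen after values were seen. Near Etv4, Mpp2 was called lower in 5NC against 3NC (−1.50) and was 0.44 higher in the overexpression than in 5NC. Mpp2 was also picked above as a gene most like Etv4, so its values are a description. Rdm1 was called higher in the knockdown against 3NC (1.34) and against 5NC (1.17). All genes were called at 1.05% lower in 5NC against 3NC, and at 0.498% and 1.26% higher in the knockdown against 3NC and against 5NC. Of the 10 neighbours of Etv4, 4 were higher and 2 lower at an adjusted p of 0.05 from limma in the knockdown against 3NC, and 2 were higher and 6 lower in 5NC against 3NC. The neighbours of Etv5 gave no call by limma, and 4 of 10 were higher and 5 lower in the knockdown against 3NC and 0 higher and 5 lower in 5NC against 3NC. Those of Etv1 gave no call either, and 7 of 10 were higher and 2 lower in the knockdown against 3NC and 2 higher and 2 lower in 5NC against 3NC. The shares of all genes were 31.9% higher and 23.5% lower in the former comparison and 31.0% and 25.6% in the latter. The neighbours higher and lower in the overexpression against 5NC were 2 and 1 for Etv4, 1 and 2 for Etv5 and 0 and 1 for Etv1 (8.07% and 13.9% of all genes), and in the knockdown against 5NC 7 and 2, 3 and 3, and 6 and 1 (34.0% and 31.4%).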
